A study of Homo sapiens with 2 samples.

Results

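The genes described here are the 74 protein-coding genes whose RefSeq symbols begin with SNRP, SF3A, SF3B, U2AF, PRPF, SRSF or HNRNP, out of 20037 protein-coding genes on chromosomes 1 to 22, X and Y. They form 7 symbol families with 12 SNRP, 3 SF3A, 6 SF3B, 3 U2AF, 12 PRPF, 12 SRSF and 26 HNRNP genes. The study mapped RUNX2 and MTA1 in untreated MDA-MB-231 cells, a human triple-negative breast cancer line with mesenchymal features, by CUT&Tag, in which an antibody tethers a transposase that cuts nearby DNA. RUNX2 is a transcription factor of bone formation that binds DNA itself, and MTA1 belongs to NuRD, a complex that remodels nucleosomes and removes acetyl groups from histones. There was 1 library per antibody, and no control library was analysed here. The labels name Cell Signaling Technology as the supplier of both antibodies while the methods name other suppliers, and the labels describe end repair and adaptor ligation where the methods describe tagmentation, so the exact product and preparation are uncertain.

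Splicing removes introns from pre-mRNA through the spliceosome, which is built from small nuclear ribonucleoproteins (snRNPs). The SNRP genes encode the Sm ring and the particle-specific proteins of the U1 and U2 snRNPs, U2AF proteins read the end of the intron, and SF3A and SF3B hold the U2 snRNP at the branch point. PRPF proteins belong mostly to the later tri-snRNP and the activated spliceosome. SR proteins (SRSF) and heterogeneous nuclear ribonucleoproteins (HNRNP) bind pre-mRNA and raise or lower the use of nearby splice sites, often in opposite ways. Most of these genes are active in nearly every cell type.

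A gene was counted as having an end peak when a listed peak reached within 1 kb of either end of the gene. A peak's score, whose scale is not given in the sources used here, was read only as a percentile, the share of peaks in the same list with a lower score. The RUNX2 list held 61700 usable peaks (median score 6.70, median width 151 bp). The MTA1 list held 42683 (median score 7.58, median width 185 bp). Read depth is unknown, so a missing peak may be a weak signal. The processing notes list hg19, but the positions matched gene ends of GRCh38. Of the 74 genes, 60 had a RUNX2 and 65 an MTA1 end peak at the listed positions, and 11 and 11 after the peaks were moved by 100 kb. As a check of the cell line, all 5 mesenchymal genes tried (VIM, CD44, AXL, CAV1 and FN1) had end peaks of both libraries, and of the luminal or epithelial genes ESR1, PGR, GATA3, CDH1 and EPCAM only EPCAM did. Over all protein-coding genes 43.9% had end peaks of both libraries, and with 5 genes in each list this check is weak. A peak is not a measure of expression.

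The start regions of 7 of the genes are printed here, most of them under peaks of both libraries. HNRNPR carried the highest-scoring RUNX2 end peak of the 74 genes and SNRPA the highest-scoring MTA1 end peak, SF3B2 was among the top 5 in both lists, and SNRPB and SF3B6 were among the top 5 for MTA1. SNRPB2 had an MTA1 end peak and no RUNX2 end peak, and HNRNPL had its strong peaks elsewhere, as given with its other start. Each sequence holds the 250 bases before the annotated start, 5′ to 3′ on the strand of the gene, from RefSeq GRCh38.p14, and no other annotated gene lies in these windows. Capitals mark matches, on either strand, to CCGGAAG (an ETS factor motif) or GGGCGG (an SP/KLF motif). None of the 7 windows matched TGTGGT, the core letters of the RUNX motif.
HNRNPR: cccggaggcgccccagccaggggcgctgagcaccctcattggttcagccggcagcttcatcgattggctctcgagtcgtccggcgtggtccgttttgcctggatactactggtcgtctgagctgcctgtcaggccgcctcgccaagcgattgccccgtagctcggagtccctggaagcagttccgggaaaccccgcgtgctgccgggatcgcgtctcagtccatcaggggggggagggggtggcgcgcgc
SF3B2: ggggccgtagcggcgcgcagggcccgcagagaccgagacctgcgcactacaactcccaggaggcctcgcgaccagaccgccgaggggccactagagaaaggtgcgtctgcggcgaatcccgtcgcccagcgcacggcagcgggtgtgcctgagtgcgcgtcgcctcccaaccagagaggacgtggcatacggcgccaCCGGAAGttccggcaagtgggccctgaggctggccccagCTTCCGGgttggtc
SNRPA: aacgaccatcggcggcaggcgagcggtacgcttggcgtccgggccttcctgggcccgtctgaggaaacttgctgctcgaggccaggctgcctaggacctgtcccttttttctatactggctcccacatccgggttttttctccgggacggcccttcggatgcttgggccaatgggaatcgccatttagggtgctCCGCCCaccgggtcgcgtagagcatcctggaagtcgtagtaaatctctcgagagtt
SNRPB: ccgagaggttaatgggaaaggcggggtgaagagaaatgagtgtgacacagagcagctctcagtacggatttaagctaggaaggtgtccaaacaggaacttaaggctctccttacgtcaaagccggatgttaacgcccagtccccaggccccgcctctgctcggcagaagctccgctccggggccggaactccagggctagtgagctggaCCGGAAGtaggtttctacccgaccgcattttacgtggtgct
SF3B6: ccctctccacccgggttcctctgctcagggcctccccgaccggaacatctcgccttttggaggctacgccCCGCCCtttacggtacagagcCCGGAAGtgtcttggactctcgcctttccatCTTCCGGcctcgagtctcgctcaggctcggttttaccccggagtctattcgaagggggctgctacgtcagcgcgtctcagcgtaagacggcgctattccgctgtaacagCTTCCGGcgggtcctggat
SNRPB2: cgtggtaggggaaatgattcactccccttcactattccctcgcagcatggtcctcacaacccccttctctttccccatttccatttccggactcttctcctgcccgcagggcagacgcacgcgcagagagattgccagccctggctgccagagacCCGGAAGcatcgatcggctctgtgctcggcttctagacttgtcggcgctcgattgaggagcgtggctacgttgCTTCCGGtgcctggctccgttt
HNRNPL: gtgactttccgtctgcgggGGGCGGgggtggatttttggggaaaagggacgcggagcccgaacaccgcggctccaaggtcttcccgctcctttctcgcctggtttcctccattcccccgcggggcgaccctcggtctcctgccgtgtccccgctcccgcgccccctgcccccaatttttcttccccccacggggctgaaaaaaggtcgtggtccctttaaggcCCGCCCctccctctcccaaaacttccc
The HNRNPR window lies at chr1:23344285-23344534 (minus strand), and the RUNX2 peak covered 229 of its 250 bases and the MTA1 peak all of them. The SF3B2 window at chr11:66052114-66052363 (plus strand), the SNRPA window at chr19:40750953-40751202 (plus strand), the SNRPB window at chr20:2470790-2471039 (minus strand) and the SF3B6 window at chr2:24076327-24076576 (minus strand) were covered whole by peaks of both libraries. In the SNRPB2 window at chr20:16729776-16730025 (plus strand), MTA1 peaks covered 186 bases and RUNX2 peaks covered 0. The HNRNPL window at chr19:38852348-38852597 (minus strand) was covered at 0 bases by either library.

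Most splicing and hnRNP genes carried end peaks of both libraries. A RUNX2 end peak was found at 60 of 74 genes (81.1%, exact 95% interval 70.3 to 89.3), where 49.9% of all protein-coding genes had one. An MTA1 end peak was found at 65 of 74 genes (87.8%, 78.2 to 94.3), against 50.9% of all protein-coding genes. Intervals cover counting error only, and with a single library per antibody and genes that are not replicates no test was made. Within 3 kb of an end the counts were 62 (83.8%) for RUNX2, 65 (87.8%) for MTA1 and 62 for both, against 59.9%, 59.1% and 51.9% of all protein-coding genes.

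The RUNX2 peaks fell where MTA1 peaks were. Both libraries had an end peak at 60 genes, 81.1% against 43.9% of all protein-coding genes, so no splicing or hnRNP gene had a RUNX2 end peak alone (0 genes, where the background was 5.99%). MTA1 alone was found at 5 genes (6.76%, background 7.07%) and neither at 9 (12.2%, 5.71 to 21.8, background 43.1%). At 59 genes (79.7%, 68.8 to 88.2) peaks of the 2 antibodies shared at least 1 bp, against 41.8% of all protein-coding genes. SNRPA1, which encodes a U2 snRNP protein, was the exception among the 60 genes with both, its peaks lying apart.

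Across all genes the lists also met often. Of all protein-coding genes with a RUNX2 end peak 88.0% had an MTA1 end peak, and among the 60 splicing and hnRNP genes the share was 100% (94.0 to 100). In the other direction 92.3% (83.0 to 97.5) of the 65 genes with MTA1 had RUNX2, against 86.1% over all genes.

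**Figure D1:**
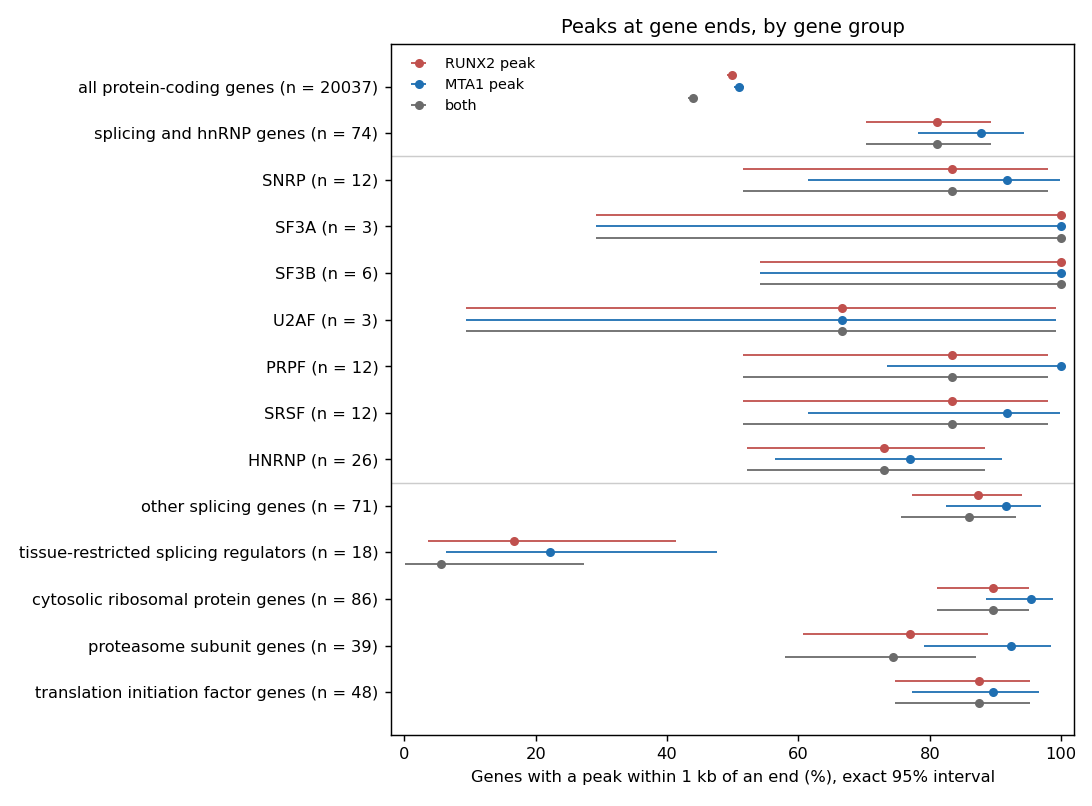
Share of genes (%, horizontal axis) with a RUNX2, an MTA1 or both end peaks in each gene group, with exact 95% intervals as lines. The 74 splicing and hnRNP genes sit at 81.1%, 87.8% and 81.1% against 49.9%, 50.9% and 43.9% of all protein-coding genes, and the tissue-restricted regulators sit lowest.

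The strongest end peaks of these genes had medians above the middle of each list, as did those of all protein-coding genes. MTA1 peaks ranked higher than RUNX2 peaks at most genes. The median percentile of the strongest end peak was 78.3 (interval of the median 68.3 to 85.3, 60 genes) for RUNX2 and 87.2 (79.5 to 91.2, 65 genes) for MTA1, where the medians over all protein-coding genes with a peak were 71.3 and 75.2. The RUNX2 interval contained the all-gene median of its list, and the MTA1 interval lay above that of its list. These medians leave out genes with no peak. Counted over all 74 genes, 14 (18.9%, 10.7 to 29.7) had a RUNX2 end peak at or above percentile 90 of the list, against 8.77% of all protein-coding genes. For MTA1 the count was 28 (37.8%, 26.8 to 49.9) against 13.6%.

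In 11 genes, against 6.18% of all protein-coding genes, the end peaks of both libraries reached percentile 90 of their lists. These were SNRPA, SNRPD2, SF3B2, SRSF2, SRSF5, SRSF10, HNRNPA0, HNRNPA1, HNRNPA2B1, HNRNPD and HNRNPR. At SRSF10 and HNRNPA2B1 no overlapping pair of end peaks reached percentile 90 in both lists. RUNX2 alone reached it at SF3B3, SRSF3 and HNRNPLL (4.05%, against 2.59% of all protein-coding genes), and MTA1 alone at 17 genes (23.0%, 14.0 to 34.2, against 7.43%). The MTA1 percentile was the higher of the pair at 43 of 60 genes (71.7%), and over all protein-coding genes with both peaks this held in 62.0%. Across the 60 genes the percentiles had a Spearman rho of 0.561, and across the 8791 protein-coding genes with both peaks 0.641, both given as descriptions over genes that share the same pair of libraries.

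**Figure D2:**
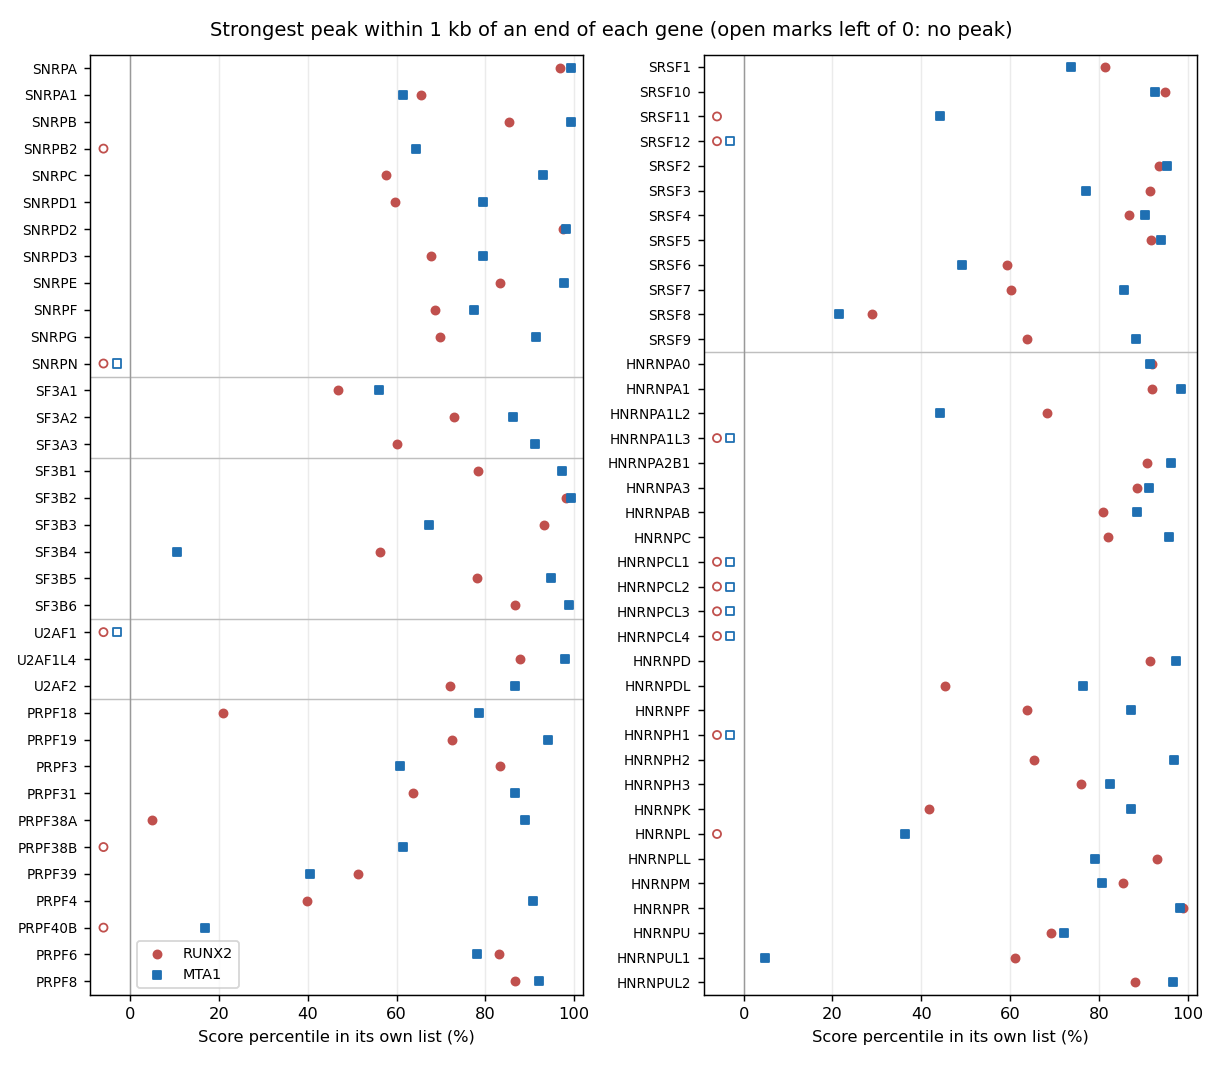
Percentile of the strongest RUNX2 (circles) and MTA1 (squares) end peak of each gene, by family, with open marks left of 0 for genes with no end peak and 1 gene with both peaks not drawn. MTA1 squares lie right of RUNX2 circles at most genes, and 9 genes have open marks for both.

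Among the SNRP genes, 10 of 12 had a RUNX2 and 11 an MTA1 end peak. SNRPA, a protein that binds a loop of U1 snRNA, had a RUNX2 peak of score 39.4 (percentile 96.9) listed at chr19:40750494-40751233. Its MTA1 peak, at chr19:40750480-40751224, scored 51.2 and stood at percentile 99.4, rank 263 of its list. SNRPD2 and SNRPB encode Sm ring proteins shared by most spliceosomal snRNPs. SNRPD2 reached percentile 97.5 (score 42.4) for RUNX2 and 98.0 for MTA1, whereas SNRPB reached 85.4 (score 18.3) for RUNX2 and 99.2 (score 48.6) for MTA1. The 12 genes were thus alike in having peaks more than in how high those peaks ranked, with family medians of 69.2 for RUNX2 and 91.3 for MTA1.

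SNRPB2 and SNRPN departed from the rest of that family. SNRPB2, another U2 snRNP protein, had an MTA1 peak of score 9.98 (percentile 64.4) over its start, and its nearest RUNX2 peak was 67650 bp away. SNRPN, an imprinted Sm protein gene used mainly in brain, had no end peak of either library. None of the 4 annotated starts of SNRPN had a peak within 1 kb.

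Every SF3A and SF3B gene had end peaks of both libraries, which was 3 of 3 and 6 of 6 genes. SF3B2, whose product contacts the pre-mRNA near the branch point, had RUNX2 score 45.8 (percentile 98.0, chr11:66051963-66052426) and MTA1 score 48.5 (percentile 99.2, chr11:66052013-66052627). SF3B6, the p14 subunit that lies at the branch point adenosine, had RUNX2 score 19.6 (percentile 86.7) and MTA1 score 44.7 (percentile 98.8, chr2:24076247-24076830). SF3B4 lay at the other extreme, with percentiles of 56.2 for RUNX2 and 10.5 for MTA1. The highest SF3A percentiles were lower for RUNX2, 72.9 at SF3A2, than for MTA1, 91.2 at SF3A3.

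In the U2AF family, U2AF2, the large subunit that binds the polypyrimidine tract, stood at percentiles 72.0 for RUNX2 and 86.8 for MTA1. U2AF1L4, a paralogue of the small subunit, stood at 87.9 and 97.9. U2AF1, the small subunit that reads the AG at the end of the intron, had no end peak, its nearest peaks being 80190 bp (RUNX2) and 86423 bp (MTA1) away. The annotation holds 1 near-identical copy of U2AF1 on the same chromosome, and how reads matching several places were treated is not given in the sources used here, so the part of the copy in that absence was not tested.

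All 12 PRPF genes had an MTA1 end peak and 10 had a RUNX2 end peak. PRPF8, the large protein at the core of the U5 snRNP, had the highest RUNX2 score of the family (19.6, percentile 86.7). PRPF19, a ubiquitin ligase of the activated spliceosome, had the highest MTA1 score (27.8, percentile 94.2). This family held wide gaps between the lists. PRPF38A stood at percentile 4.94 for RUNX2 and 88.9 for MTA1, PRPF18 at 20.8 and 78.6, and PRPF4 at 39.9 and 90.7. Each of these RUNX2 peaks had the narrowest width of its list, 99 bp. At PRPF38A the RUNX2 peak did not overlap that MTA1 peak but a weaker one, at percentile 36.0.

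The 2 PRPF genes with MTA1 alone had modest MTA1 peaks. PRPF38B had MTA1 score 9.42 (percentile 61.5) with the nearest RUNX2 peak 2846 bp away. PRPF40B had MTA1 score 4.99 (percentile 16.9) with the nearest RUNX2 peak 7945 bp away.

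Of the 12 SRSF genes, 10 had a RUNX2 and 11 an MTA1 end peak, with family medians of 84.1 and 85.7. SRSF10, an SR protein that turns into a repressor when dephosphorylated, had the highest RUNX2 score of the family (32.3, percentile 94.8). SRSF2, which binds exonic enhancers, stood at percentile 93.6 (score 29.2) for RUNX2 and 95.4 (score 30.4) for MTA1, the latter the highest of the family. At SRSF11 MTA1 alone was found at an end (score 6.99, percentile 44.1), and SRSF12 had neither, with the nearest peaks 15194 bp (RUNX2) and 14075 bp (MTA1) away. SRSF8 was the gene with peaks nearest to the 1 kb limit, 779 bp for RUNX2 and 819 bp for MTA1.

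The HNRNP family held most of the genes without peaks, with RUNX2 at 19 and MTA1 at 20 of 26 genes. HNRNPR, an RNA-binding protein also known for mRNA transport in neurons, had a RUNX2 peak of score 53.4 (percentile 98.9, rank 696, chr1:23344306-23344804). HNRNPA1, an abundant repressor of splice sites, had RUNX2 score 26.1 and MTA1 score 41.7 (percentile 98.4, chr12:54280472-54280751). HNRNPK, a poly(C)-binding protein, stood at percentile 41.8 for RUNX2 and 87.2 for MTA1. Neither library had an end peak at HNRNPA1L3, HNRNPCL1, HNRNPCL2, HNRNPCL3, HNRNPCL4 or HNRNPH1.

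The 5 genes HNRNPA1L3 and HNRNPCL1 to HNRNPCL4 are copies of other family members, and with U2AF1 they make up 6 of the 9 genes with no end peak. HNRNPCL1 came nearest to the limit from outside in the MTA1 list, with a peak at 3068 bp, and HNRNPL did so in the RUNX2 list at 1619 bp. HNRNPA1L2, another copy of HNRNPA1, did have end peaks, at percentiles 68.3 for RUNX2 and 44.1 for MTA1. The annotation also names 75 numbered pseudogenes of HNRNPA1. Without the near-identical copies, a setting chosen after the values were seen, 59 of 67 genes (88.1%) had a RUNX2 end peak. This setting drops 6 of the 9 genes with no end peak, so the share rises by construction. No share of all protein-coding genes was computed for it.

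Several genes that ranked low or lacked a peak at their outer end had strong peaks at another annotated start. HNRNPL, which binds CA-rich RNA, had no RUNX2 peak and an MTA1 peak of score 6.06 (percentile 36.3) at its ends. At its other start, 2361 bp inside the gene, the RUNX2 peak scored 55.5 (percentile 99.0, rank 599, chr19:38849992-38850728). The MTA1 peak there scored 59.5 (percentile 99.8, rank 105, chr19:38849965-38850735). Both exceeded the highest end peak of any of the 74 genes in their lists.

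HNRNPH1, which binds G-rich RNA, had no peak at its outer start, whose window has a ratio of observed to expected CpG of 0.389. At starts 10184 to 11383 bp inside, its strongest RUNX2 peak scored 36.3 (percentile 96.1) and its strongest MTA1 peak 24.1 (percentile 91.8). HNRNPUL1, a protein of the DNA damage response as well as of RNA, had end peaks of score 8.30 and 3.85 (percentiles 61.1 and 4.92). A start 1815 bp inside had a RUNX2 score of 30.7 (percentile 94.3) and an MTA1 score of 45.2 (percentile 98.9).

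SRSF11 gained a RUNX2 peak of score 17.5 (percentile 84.4) at a start 15684 bp inside, with an MTA1 peak of score 9.49. HNRNPF went the other way, with its higher peaks at the outer of its starts. In all, 15 genes had several annotated starts. Counting any annotated start, a setting chosen after the values were seen, added 3 genes for RUNX2 (63 of 74, 85.1%) and 1 for MTA1 (66 of 74, 89.2%), against 52.9% and 53.8% of all protein-coding genes in that setting.

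**Figure D3:**
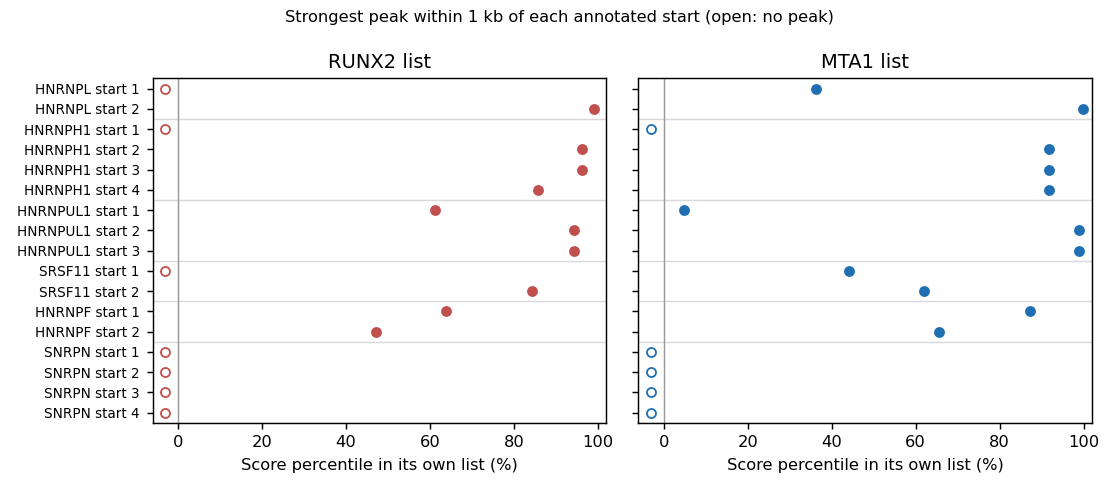
Percentile of the strongest peak within 1 kb of each annotated start of 6 genes with distant starts, numbered from the outer end, with open marks for no peak. HNRNPL moves from no RUNX2 peak at its outer start to percentile 99.0 at its inner start, and all 4 starts of SNRPN are open in both lists.

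The peaks lay at the start of the gene and mostly just before it. For the 65 genes whose start side the promoter table gives, RUNX2 peaks were within 1 kb of the start in 53 (81.5%) and of the far end in 7 (10.8%). MTA1 peaks were near the start in 58 (89.2%) and near the far end in 6 (9.23%). Over all 15843 genes with a known side the start shares were 48.9% and 51.0% and the far-end shares 8.13% and 6.76%. The splicing and hnRNP shares were above those of all genes at both sides, by over 30 percentage points at the start and by under 3 at the far end, where the exact intervals of the 65 genes (4.44 to 20.9 and 3.46 to 19.0) contained the all-gene shares.

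The start base itself was covered by a RUNX2 peak in 34 of 65 genes (52.3%, 39.5 to 64.9), against 27.4% of all genes, and by an MTA1 peak in 47 (72.3%, 59.8 to 82.7), against 33.3%. Coverage was highest 100 bp before the start for RUNX2, at 42 genes (64.6%), and 50 bp before it for MTA1, at 52 genes (80.0%). It was uneven around the start. At 250 bp before the start 27 genes were covered by RUNX2 and 30 by MTA1, and at 250 bp after it 9 and 12. Over all genes the coverage was uneven in the same direction, at 15.8% (RUNX2) and 18.0% (MTA1) before the start and 6.73% and 6.78% after it. At SRSF1, an SR protein gene, a RUNX2 peak at the far end (score 15.4) and another at the start (score 15.2) ranked almost alike, at percentiles 81.3 and 81.0. Ends of VEZF1 and LOC101929185 lay within 1 kb of the ends of SRSF1, so these peaks may belong to a neighbour.

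**Figure D4:**
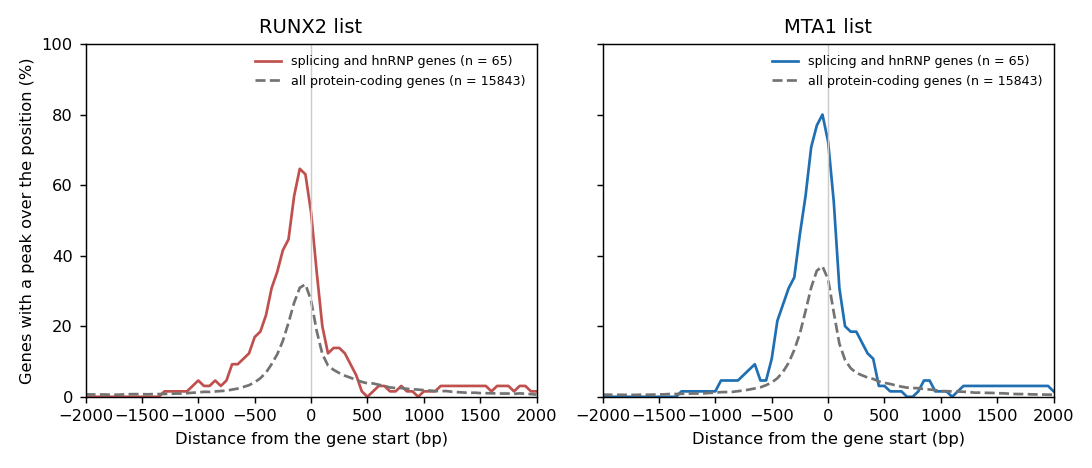
Share of genes (%) with a peak over each position from 2000 bp before to 2000 bp after the start, for the 65 splicing and hnRNP genes (solid) and all protein-coding genes (dashed). The solid lines peak at 64.6% (RUNX2) and 80.0% (MTA1), and the dashed lines at 31.9% and 37.0%.

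More than 1 end peak was found at 24 of the 74 genes for RUNX2 (32.4%, 22.0 to 44.3), against 13.4% of all protein-coding genes, and at 21 for MTA1 (28.4%, 18.5 to 40.1), against 11.6%. The 74 genes had 87 RUNX2 and 93 MTA1 end peaks, with at most 3 at any gene. The strongest end peaks had median widths of 320.5 bp (RUNX2) and 339 bp (MTA1), against 250 and 286 bp over all protein-coding genes with a peak.

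Inside the genes the comparison ran the other way. RUNX2 peaks more than 1 kb from either end lay inside 24 of the 74 genes (32.4%, 22.0 to 44.3), against 44.7% of all protein-coding genes, and MTA1 peaks inside 21 (28.4%, 18.5 to 40.1), against 36.5%. The genes were also shorter, with a median span of 14725.5 bp against 24115 bp, and the part of length in these shares was not tested. An inside peak outscored the strongest end peak, or stood without one, at 11 genes for RUNX2 (14.9%, against 31.7%) and at 9 for MTA1 (12.2%, against 24.4%). SNRPC, a U1 snRNP protein that steadies pairing of U1 snRNA with the splice site, had an inside RUNX2 peak of score 24.3 (percentile 90.8) and no inside MTA1 peak. HNRNPM also had an inside RUNX2 peak (score 32.4) without an inside MTA1 peak. Both genes were chosen after their values were seen.

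Genes with close neighbours can share a peak with them. Another annotated gene end lay within 1 kb for 41 of the 74 genes (55.4%) and for 44.4% of all protein-coding genes. Examples are HNRNPA1 beside CBX5 and HNRNPA2B1 beside CBX3, pairs of an hnRNP gene and a heterochromatin protein gene. Among the 33 genes with no such neighbour, 23 (69.7%) had a RUNX2 and 26 (78.8%) an MTA1 end peak, against 38.6% and 38.7% of all protein-coding genes without a neighbour. Among the 41 with a neighbour the shares were 90.2% and 95.1%, against 63.9% and 66.3%. The gene to which a shared peak belongs cannot be told apart from these lists.

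Most of the start regions were CpG-rich. The ratio of observed to expected CpG in the 300 bases around the start was at least 0.6 in 58 of 65 genes (89.2%) and in 65.6% of all promoters, with medians of 0.932 and 0.761, while GC content was alike (medians 62.0% and 62.7%). Within the CpG-rich promoters, 51 of 58 genes (87.9%) had a RUNX2 and 56 of 58 (96.6%) an MTA1 end peak, against 67.4% and 70.4% of all CpG-rich promoters. Of the 7 genes below the ratio, 2 had end peaks of each library, SNRPD3 and SRSF8. Of the 9 genes with neither peak, 7 had a promoter entry and 5 of these lay below 0.6, with U2AF1 at 1.01 and SRSF12 at 0.924 above it.

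**Figure D5:**
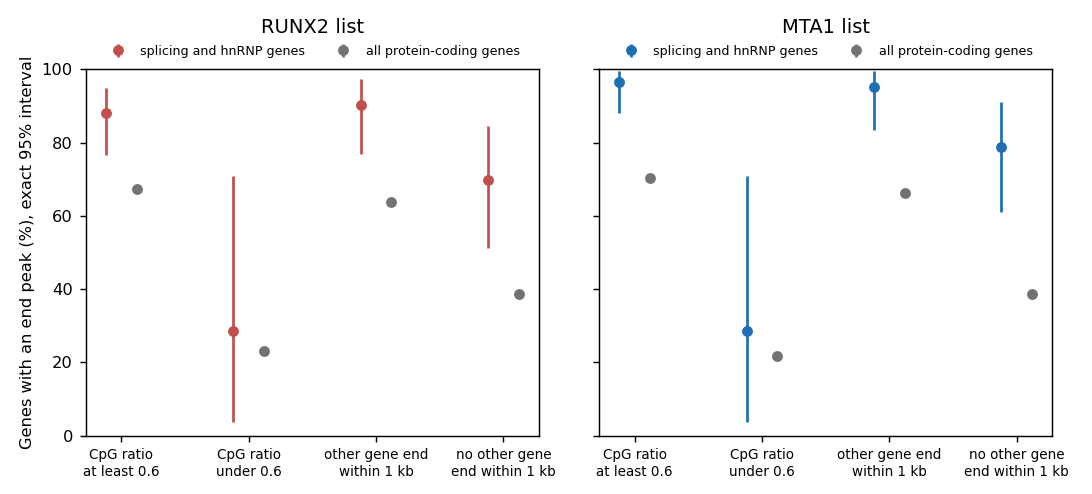
Share of genes (%) with an end peak when genes are split by the CpG ratio of the promoter or by a neighbouring gene end, for the splicing and hnRNP genes (coloured) and all protein-coding genes (grey), with exact 95% intervals. The coloured points lie above the grey in every split, and below a ratio of 0.6 the coloured intervals contain the grey points.

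Motif letters in the 300-base windows were searched on both strands and are descriptions, not sites. The RUNX core TGTGGT was in 7 of 65 promoters (10.8%), against 11.0% of all promoters, and all 7 of these genes had end peaks of both libraries. They were SNRPF, SNRPG, SF3A3, PRPF8, PRPF18, SRSF6 and HNRNPA0. Across all promoters the shares with an end peak were 45.2% for RUNX2 and 41.8% for MTA1 with the core, and 53.0% and 55.1% without it. Within CpG-rich promoters the RUNX2 end-peak shares were close, at 69.2% (65.9 to 72.3) with the core and 67.3% without. RUNX2 peaks at or above percentile 90 were at 19.8% and 12.0%. For MTA1 the end-peak shares there were 68.7% and 70.5%. Among splicing and hnRNP genes with CpG-rich promoters, RUNX2 peaks reached percentile 90 at 1 of 7 with the core (14.3%, 0.361 to 57.9). Without the core they did at 10 of 51 (19.6%, 9.82 to 33.1). The interval for the 7 genes contained both shares of all CpG-rich promoters, so no order can be told. The ETS letters CCGGAAG were in 21 of 65 (32.3%, 21.2 to 45.1), against 14.2% of all promoters, and within CpG-rich promoters in 36.2% against 19.7%. Of the 21 genes with ETS letters, 20 had a RUNX2 and 21 an MTA1 end peak, the exception being SNRPB2. Of the 44 without them, 33 and 37 did. All 21 genes with the letters had CpG-rich promoters. Among the 37 genes with CpG-rich promoters lacking the letters, 31 (83.8%) had a RUNX2 and 35 (94.6%) an MTA1 end peak. Across all promoters the end-peak shares were 76.1% and 82.0% with the ETS letters and 48.2% and 49.0% without. Within CpG-rich promoters the gap was smaller, with 79.3% and 85.3% with the letters and 64.5% and 66.7% without. The SP/KLF letters GGGCGG were equally frequent in both sets (58.5% and 58.3%). TATAAA was in 5 promoters (7.69%, all promoters 9.75%), the AP-1 letters TGACTCA in 1 (SF3A2, 1.54%, all promoters 3.62%) and the NRF1 motif in 0 of 65, with an exact upper limit of 5.52% against 1.77% of all promoters.

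Other genes of the splicing pathway, from a list of 71 that the symbol rule does not take, also carried end peaks in most cases. They include further snRNP proteins, helicases, exon junction proteins and kinases of SR proteins. A RUNX2 end peak was found at 62 (87.3%) and an MTA1 end peak at 65 (91.5%), with both at 61. Neither was found at CRNKL1, LSM7, SRPK2, CLK3 and MBNL1, RUNX2 alone was found at LSM6, and MTA1 alone at PLRG1, CWC15, CWC22 and SART3. By contrast, of 18 splicing regulators known for restricted tissues, such as the neuronal ELAVL and NOVA genes and the epithelial ESRP genes, 3 (16.7%, 3.58 to 41.4) had a RUNX2 and 4 (22.2%, 6.41 to 47.6) an MTA1 end peak. These were PTBP2, CELF3 and RBM24 for RUNX2 and PTBP2, NOVA2, CELF4 and MBNL3 for MTA1, so that PTBP2, the neuronal paralogue of the polypyrimidine tract binding protein, was the only gene of the 18 with both. Their peaks ranked low, at percentiles of 13.8 or less for RUNX2 and 36.3 or less for MTA1. Within 3 kb of an end the counts were 7 (38.9%, 17.3 to 64.3) for RUNX2 and 8 (44.4%, 21.5 to 69.2) for MTA1. These wider-window intervals contained the shares of all protein-coding genes at that distance, 59.9% and 59.1%.

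Other gene groups of the basic expression machinery also had end peaks at most genes. Of 86 cytosolic ribosomal protein genes 89.5% had a RUNX2 and 95.3% an MTA1 end peak, of 39 proteasome subunit genes 76.9% and 92.3%, and of 48 translation initiation factor genes 87.5% and 89.6%. Set beside the exact intervals of the 74 genes, 70.3 to 89.3 for RUNX2 and 78.2 to 94.3 for MTA1, the ribosomal shares lay just above the upper limits and the other shares within them. A RUNX2 end peak without an MTA1 end peak was also rare in these other groups. It was found at 0 of 86 ribosomal, 1 of 39 proteasome and 0 of 48 initiation factor genes. High-ranking end peaks, at or above percentile 90, were not particular to the splicing and hnRNP genes. For RUNX2 they were at 20.9% of ribosomal, 15.4% of proteasome and 27.1% of initiation factor genes. For MTA1 the shares were 32.6%, 38.5% and 50%. Among the 71 other splicing genes they were 18.3% (RUNX2) and 33.8% (MTA1). All but the 50% lay within the intervals of the 74 genes (18.9%, 10.7 to 29.7, and 37.8%, 26.8 to 49.9). The genes of a group are not replicates, and no difference between the groups was tested.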

How the data were processed

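MDA-MB-231 cells were used for 1 CUT&Tag library each of RUNX2 and MTA1. The authors deposited 1 peak list per library holding chromosome, start, end, name and a score in column 5, whose scale, like the peak threshold and any control, is not given in the sources used here. The submitters' processing notes list CASAVA 1.4, Bowtie 0.12.8, MACS, MACS2 and hg19. A GRCh38 protein-coding gene end was within 1 kb of 17.9% of the RUNX2 peaks and 25.1% of the MTA1 peaks as deposited, and of 4.65% and 5.06% once they were moved by 100 kb, so RefSeq GRCh38.p14 gene names and neighbours were used. Peak positions are printed 1-based as listed.

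Counts carry exact (Clopper-Pearson) 95% intervals and medians carry intervals from order statistics, both covering counting error only. Percentiles were taken within each list. Python 3.11.15, pandas 2.3.3, numpy 2.4.6, scipy 1.17.1 and matplotlib 3.10.9 were used. The counting was tested on simulated peaks. Promoter sequences came from RefSeq for 65 of the 74 genes. No depth was available, and no test between groups was made.

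Genes were named by rule: the top 5 per list, genes lacking a peak, genes nearest the 1 kb limit, the top gene per family and genes with copies. Other genes named, such as SNRPA1, SF3B4, U2AF2, PRPF18, PRPF4, HNRNPK, HNRNPF, HNRNPUL1 and HNRNPA2B1, were chosen after their values were seen. Values of 1 gene are not reported here singly, though it is counted. The genes and lists were chosen with earlier results of these data known. Alternatives covered the window, the score, the peak width, the overlap, neighbours, the start side and the promoter.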

Additional observations from a re-analysis of the deposited data

How the results depend on the processing

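Of 53 alternative values, 39 stayed within the exact interval of the value reported and 14 did not. With each list limited to its 10000 top peaks, 29.7% of splicing and hnRNP genes had a RUNX2 end peak (all protein-coding genes 14.5%). The share was 63.5% for MTA1 (24.6%), 28.4% for both (12.2%) and 28.4% for an overlapping pair (12.0%). Keeping peaks that reached the median score, it was 75.7% for MTA1 (38.5%), 64.9% for both (31.4%) and 60.8% for an overlapping pair (30.8%). Requiring that the shared bases make up 50% of each peak gave 63.5% (33.5%). Genes with no other gene end within 1 kb, which keeps 33 of the 74 genes, gave 69.7% for RUNX2 (38.6%) and 69.7% for both (32.0%). Counting genes from percentile 75 in place of percentile 90 gave 43.2% for RUNX2 (22.1%) and 64.9% for MTA1 (25.6%). The score, overlap and percentile settings count fewer or more peaks or genes by construction, and for the setting on neighbours the cause was not tested. Of the alternatives chosen after seeing the data, promoters with a CpG ratio of at least 0.6 gave 96.6% for MTA1 (70.4%) and genes without near-identical copies 95.5%. Leaving out the copies removes 6 of the 9 genes with no end peak, and no background was computed for it. In each of these settings for which the background was computed, the share of splicing and hnRNP genes was above it.

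No paired analysis was possible because each antibody has 1 library. For the same reason leaving out a replicate could not be done. Without read depth, a gene with no listed peak cannot be told apart from one with signal below the threshold of its list.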
